A study of Mus musculus with 18 samples.

Results

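The thioredoxin system of the retinal pigment epithelium (RPE) was examined through 10 listed genes: *Txnrd1*, *Txnrd2*, *Txnrd3*, *Txn1*, *Txn2*, *Srxn1*, *Txnip*, *Glrx*, *Glrx2* and *Glrx5*. All 10 were found by symbol among the 47729 genes of the count table, and all 10 were among the 18958 genes with enough counts to be tested. For the comparison of compartments, 5 were grouped as cytosolic (*Txn1*, *Txnrd1*, *Srxn1*, *Glrx*, *Txnip*) and 4 as mitochondrial (*Txn2*, *Txnrd2*, *Glrx2*, *Glrx5*). *Txnrd3*, a reductase best known from the testis, was kept apart. RNA came from both eyes of 9 mice labelled as *rd1* at P40, so that there were 9 Best1-Nrf2 and 9 control libraries. By the labels all 9 pairs are *rd1*, whereas the methods of the study name fewer pairs for this strain and age and, beside them, pairs of a wild-type strain at the same age, which together make up the number found here. Whether any of the 9 pairs is of that strain cannot be told from the labels. *rd1* mice carry a loss-of-function mutation in *Pde6b* and lose their rods early in life. In the Best1-Nrf2 eye, an adeno-associated virus (AAV) carried the human *Nrf2* cDNA behind the Best1 promoter, which is active in the RPE, and AAV-Best1-GFP was injected with it. The control eye of the same mouse received AAV-Best1-GFP alone. By the study's methods, the vectors in the eyes thus differed in number, capsid and total dose as well as in cargo. These differences cannot be told apart. The comparison asked which members of the system respond when the RPE of a degenerating retina makes more Nrf2.

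Thioredoxins are small proteins that reduce disulfide bonds in other proteins, and thioredoxin reductases, which are selenoproteins, restore them with electrons from NADPH. Mitochondria hold a thioredoxin and a reductase of their own, encoded by separate genes. Glutaredoxins do related work with glutathione, sulfiredoxin rescues peroxiredoxins that have been overoxidized, and Txnip binds thioredoxin and inhibits it. Nrf2 is a transcription factor that binds the antioxidant response element, and *Txnrd1*, *Srxn1* and *Txn1* are textbook targets of it in many cell types.

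Library totals ranged from 18956748 to 49598700 counts. *Nfe2l2*, the gene of Nrf2, was at 89.7 ± 17.8 CPM, that is, counts scaled to the size of the library, in the control group and at 453 ± 147 CPM with Best1-Nrf2 (SD, n = 9 in each group), and was higher in the treated eye of 9 of 9 mice. Reads were aligned to mouse sequence, so how far reads of the human cDNA were counted under *Nfe2l2* cannot be told from gene-level counts. The RPE markers were abundant in every library (mean log2 CPM over 17 genes, 8.02 to 9.68), but 6 of the 17 were lower with Best1-Nrf2, among them *Rpe65*, the isomerase of the visual cycle (2021 ± 846 against 297 ± 177 CPM). Markers of other cells were also present. All 9 cone genes were lower with Best1-Nrf2 (mean log2 CPM over the 9, 4.26 to 7.14 in control eyes and 0.58 to 4.14 in treated eyes), as were 3 of the 8 rod genes tested, while 1 rod gene was higher. The defining rod markers *Nrl* and *Nr2e3* had too few counts to be tested, at 0.0885 CPM or less and 1.06 CPM or less in every library. Of 11 macrophage and microglia genes 6 were higher and the other 5 did not pass, with *Csf1r* at a log2 fold change of -0.97 (edgeR adjusted p = 0.113). Among 6 fibroblast genes 1 was higher, the collagen gene *Col3a1* (log2 fold change, 1.15). The fibroblast genes had a median log2 fold change of 0.62. Of 7 Müller glia genes 1 was lower, *Rlbp1*, which is also counted among the 6 lower RPE markers. None of 10 inner retina, 6 endothelial and 4 red blood cell genes passed. Over all genes tested, 3.12% were higher and 1.13% lower. In bulk RNA, fewer cells of a type and less RNA per cell cannot be told apart, and the part that such shifts had in the members' levels was not tested beyond the covariate given below.

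*Txnrd1* and *Srxn1* were the members that rose. They were 2 of the 10 members and 2 of the 5 cytosolic ones. None of the 4 mitochondrial members and no member in the downward direction passed the test (edgeR quasi-likelihood F test with mouse as a block, Benjamini-Hochberg adjusted p under 0.05 over all genes tested). Among all genes tested, 4.25% passed, 3.12% in the upward and 1.13% in the downward direction, and 12.8% had an unadjusted p under 0.05. The median log2 fold change was 0.44 over the cytosolic members and 0.07 over the mitochondrial members, beside -0.03 over all genes tested.

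*Srxn1* (ENSMUSG00000032802, GRCm38 chr2:152105516-152111376, plus strand) encodes sulfiredoxin, which uses ATP to return hyperoxidized peroxiredoxins to the active cycle. In control eyes it ranged from 14.8 CPM in mouse 3 through a median of 34.4 to 51.3 CPM in mouse 8. In Best1-Nrf2 eyes the range was 432 CPM in mouse 3 through a median of 2153 to 3053 CPM in mouse 4. The lowest treated eye was thus above the highest control eye, and the counts behind these values were 415 to 1794 in control and 11202 to 118506 in treated libraries. The fold change was 47.0 (95% confidence interval, 25.96 to 85.2), or 5.56 ± 0.39 on the log2 scale (SE, edgeR adjusted p = 1.05e-05), with a rise in 9 of 9 mice. By mouse the log2 change lay between 3.78 in mouse 8 and 6.63 in mouse 4. *Srxn1* had the 19th largest log2 fold change of the 592 genes that rose.

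*Txnrd1* (ENSMUSG00000020250, GRCm38 chr10:82833951-82897712, plus strand) encodes the cytosolic thioredoxin reductase. Control eyes held 51.1 CPM in mouse 2 through a median of 61.9 to 94.4 CPM in mouse 1. Best1-Nrf2 eyes held 434 CPM in mouse 6 through a median of 1711 to 2113 CPM in mouse 2. The groups again did not overlap. The fold change was 16.9 (95% confidence interval, 9.86 to 28.9), or 4.08 ± 0.36 on the log2 scale (SE, edgeR adjusted p = 4.13e-05), and the rise by mouse ran from 2.33 in mouse 6 to 5.37 in mouse 2 on the log2 scale. None of the 31-base words of its exons occurred in another annotated gene, and 0.738% of those of *Srxn1* did. Groups that did not overlap were found for 1.17% of all genes tested (1.05% with the treated eyes on top), and a rise in 9 of 9 mice was found for 3.12%. Among the members, *Srxn1* and *Txnrd1* met both criteria and none of the other 8 met either.

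Both calls were lost in 1 alternative model. With the mean level of rod and cone markers as a covariate, the log2 fold change was 4.28 for *Srxn1* (edgeR adjusted p = 0.0671) and 2.66 for *Txnrd1* (edgeR adjusted p = 0.133), no member passed, and 21 genes passed in all. The 4 mitochondrial members had log2 fold changes of 0.61 (*Txn2*) to 1.56 (*Glrx2*) in that model, with edgeR adjusted p values of 0.209 to 0.414. The covariate was 1 mean over the rod and cone markers together. The cone mean was lower in the treated eye of 9 of 9 mice and did not overlap between the groups. The rod mean was lower in 8 of 9 mice and did overlap. The covariate thus went largely with the treatment, and this model can hardly part them. Its SE was 0.74 for *Srxn1* and 0.64 for *Txnrd1*, against 0.39 and 0.36 without the covariate.

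**Figure D1:**
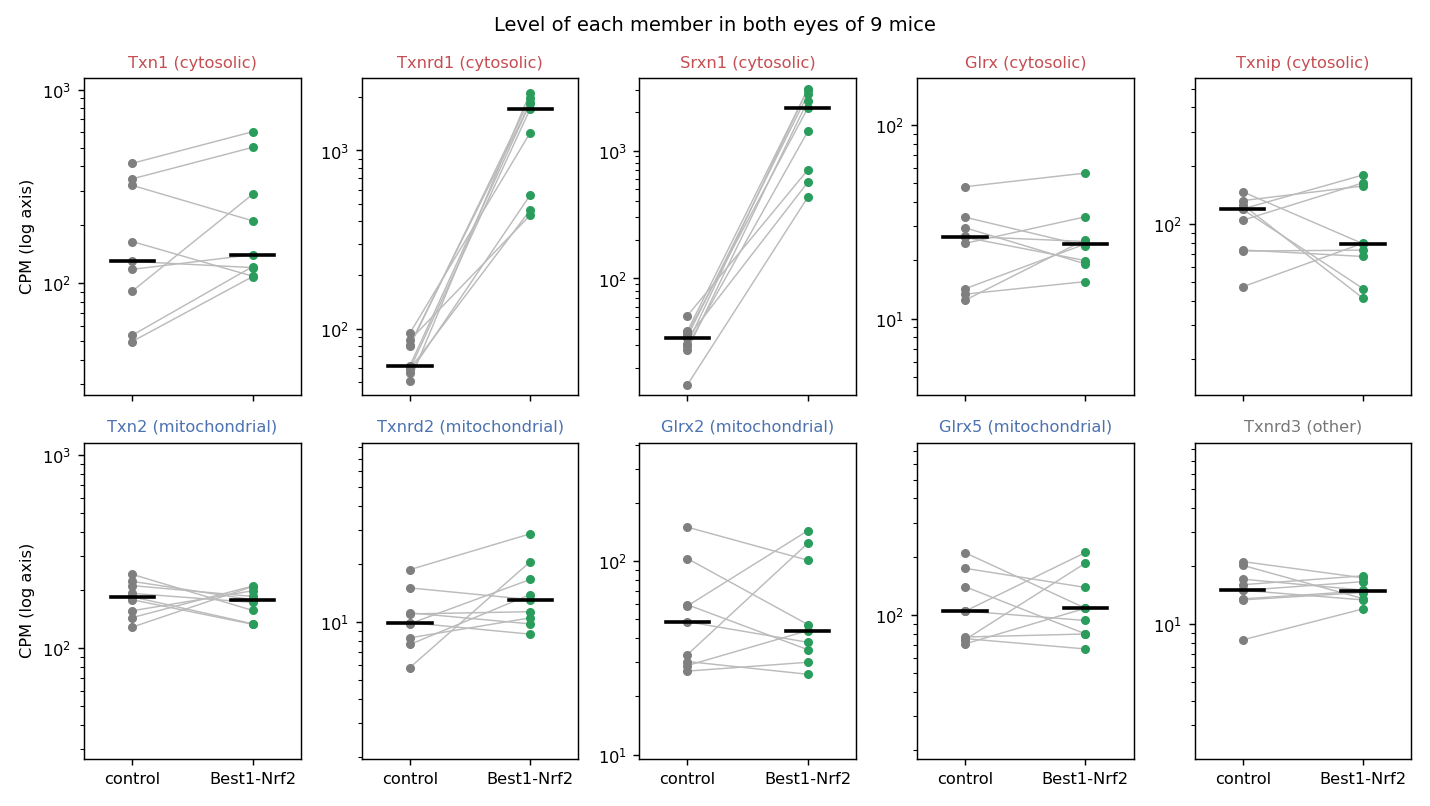
Level of each of the 10 members in both eyes of 9 mice, in CPM on a log axis that covers at least a 30-fold range in every panel. Points are eyes, grey lines join the eyes of a mouse and black bars are medians. In the *Srxn1* and *Txnrd1* panels every Best1-Nrf2 eye is above every control eye, and in the other 8 panels the groups overlap.

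The promoters of *Srxn1* and *Txnrd1* are printed because these members rose, and those of *Txn1* and *Txnrd2*, a cytosolic and a mitochondrial member that did not pass the test, for comparison. Each window holds 250 bases before and 50 after a transcription start in RefSeq (GRCm38.p6), and is written in the direction of the gene. Capitals mark matches to TGACNNNGC or to its complement strand, GCNNNGTCA, the core of the antioxidant response element, and to the related TGAGNNNGC and its complement strand, GCNNNCTCA, which was added after the letters had been seen. Both patterns can hold letters of the site of AP-1, TGAGTCA or TGACTCA. *Txnrd1* has 3 starts in RefSeq, of which the second is shown because it is the only 1 with a match.

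Srxn1, chr2:152105274-152105573, plus strand: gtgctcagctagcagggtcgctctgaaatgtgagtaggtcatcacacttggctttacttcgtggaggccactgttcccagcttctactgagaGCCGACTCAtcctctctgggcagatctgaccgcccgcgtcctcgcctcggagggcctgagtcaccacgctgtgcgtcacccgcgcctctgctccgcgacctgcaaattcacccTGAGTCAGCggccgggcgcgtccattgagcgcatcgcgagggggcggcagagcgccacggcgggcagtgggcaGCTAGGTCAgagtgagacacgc

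Txnrd1, chr10:82858956-82859255, plus strand: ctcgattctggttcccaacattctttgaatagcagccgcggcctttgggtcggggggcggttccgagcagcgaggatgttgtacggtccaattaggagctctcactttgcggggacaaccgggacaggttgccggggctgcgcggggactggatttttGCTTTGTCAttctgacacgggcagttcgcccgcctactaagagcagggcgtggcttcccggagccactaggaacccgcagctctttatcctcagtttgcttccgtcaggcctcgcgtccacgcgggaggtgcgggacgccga

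Txn1, chr4:57956362-57956661, minus strand: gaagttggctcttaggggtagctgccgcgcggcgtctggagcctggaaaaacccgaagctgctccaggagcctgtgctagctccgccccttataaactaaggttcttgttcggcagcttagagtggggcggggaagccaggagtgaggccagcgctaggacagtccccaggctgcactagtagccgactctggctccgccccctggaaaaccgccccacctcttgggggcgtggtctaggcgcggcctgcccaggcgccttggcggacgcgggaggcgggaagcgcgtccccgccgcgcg

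Txnrd2, chr16:18426167-18426466, plus strand: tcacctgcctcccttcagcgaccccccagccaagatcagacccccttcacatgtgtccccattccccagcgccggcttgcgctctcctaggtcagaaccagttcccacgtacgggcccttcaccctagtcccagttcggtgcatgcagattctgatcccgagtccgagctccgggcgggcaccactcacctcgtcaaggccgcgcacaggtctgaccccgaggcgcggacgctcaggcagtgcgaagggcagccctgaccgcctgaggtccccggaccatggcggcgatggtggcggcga

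In the *Srxn1* window there were 3 matches. GCCGACTCA begins 158 bases and TGAGTCAGC 45 bases before the start, and GCTAGGTCA begins 28 bases after it. In the second window of *Txnrd1*, GCTTTGTCA begins 92 bases before the start. No match was found in the *Txn1* and *Txnrd2* windows. Over all members, 4 of 16 windows held a match to either pattern, those of *Txn2* and *Txnrd3* being the others. The patterns are short: 12.4% of 32851 RefSeq windows of the same length held the first, 17.6% the second and 27.8% either. A match is a description of the letters and no evidence of binding.

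*Txnrd2* (ENSMUSG00000075704, GRCm38 chr16:18426384-18479073, plus strand), the mitochondrial reductase, had the lowest mean level per length of all members. Control eyes ranged from 5.81 CPM in mouse 8 through a median of 9.93 to 18.7 CPM in mouse 3, and Best1-Nrf2 eyes from 8.66 CPM in mouse 1 through 13.1 to 28.6 CPM in mouse 3. The ranges overlapped widely and 6 of 9 mice had the higher level in the treated eye. The log2 fold change was 0.42 ± 0.23 (SE, 95% confidence interval, -0.08 to 0.91, edgeR adjusted p = 0.508). Without mouse 8, whose control library held 102 counts of the gene, it was 0.26.

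*Txnrd3* (ENSMUSG00000000811, GRCm38 chr6:89643988-89675529, plus strand) joins a glutaredoxin domain to a thioredoxin reductase. It ranged from 8.29 CPM in mouse 3 through a median of 14.96 to 21.1 CPM in control eyes, and from 11.99 through 14.8 to 17.8 CPM in Best1-Nrf2 eyes. Treated eyes fell within the control range. The log2 fold change was -0.01 ± 0.15 (SE, 95% confidence interval, -0.35 to 0.32; edgeR adjusted p = 0.989).

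*Txn1* (ENSMUSG00000028367, GRCm38 chr4:57943373-57956411, minus strand) encodes the cytosolic thioredoxin that Txnrd1 reduces. Control eyes ranged from 49.8 CPM in mouse 1 through a median of 129 to 415 CPM in mouse 8, and Best1-Nrf2 eyes from 108 CPM in mouse 1 through 140 to 605 CPM in mouse 8. The same mice were lowest and highest in both groups, and the spread between mice exceeded the difference between eyes. The level was higher with Best1-Nrf2 in 6 of 9 mice, by 0.44 on the log2 scale (SE 0.25, 95% confidence interval, -0.11 to 0.99; edgeR adjusted p = 0.539). Without mouse 6 it was 0.29, and without other single mice 0.35 to 0.58. A rise of 16.9-fold, as seen for the reductase, lay outside this interval.

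*Txn2* (ENSMUSG00000005354, GRCm38 chr15:77915047-77929006, minus strand), the mitochondrial thioredoxin, varied little. It ranged from 129 through 184 to 241 CPM in control eyes and from 133 through 178 to 209 CPM in Best1-Nrf2 eyes. The treated eye was higher in 3 of 9 mice, with a log2 fold change of -0.07 ± 0.17 (SE, 95% confidence interval, -0.45 to 0.31; edgeR adjusted p = 0.945).

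*Txnip* (ENSMUSG00000038393, GRCm38 chr3:96557957-96561883, plus strand), the thioredoxin-binding inhibitor that is also known for its response to glucose, ranged from 47.3 through 119 to 146 CPM in control eyes and from 41.2 through 78.9 to 179 CPM in Best1-Nrf2 eyes. The treated eye was the higher in 5 of 9 mice, and the changes by mouse were spread from -1.61 in mouse 4 to 0.75 in mouse 1 on the log2 scale. The log2 fold change was -0.18 ± 0.27 (SE, 95% confidence interval, -0.78 to 0.42, edgeR adjusted p = 0.889), and came to -0.0046 without mouse 4 and -0.03 without mouse 6. Of its 31-base words, 17.4% occur in other genes, most of them in the overlapping antisense gene *Gm15441*, which was at 1.35 CPM or less in every library.

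The glutaredoxins showed no change past the threshold. *Glrx* (ENSMUSG00000021591, GRCm38 chr13:75839868-75850154, plus strand), the cytosolic dithiol form, ranged from 12.5 through 26.3 to 48.1 CPM in control eyes and from 15.5 through 24.3 to 56.6 CPM in Best1-Nrf2 eyes. *Glrx2* (ENSMUSG00000018196, GRCm38 chr1:143716338-143749676, plus strand), its mitochondrial counterpart, ranged from 27.0 through 48.7 to 150.0 CPM and from 26.04 through 43.8 to 144 CPM. *Glrx5* (ENSMUSG00000021102, GRCm38 chr12:105032688-105042906, plus strand), a monothiol form that serves the making of iron-sulfur clusters in mitochondria, ranged from 70.8 through 105 to 210 CPM and from 66.7 through 108 to 210 CPM. The groups overlapped almost fully for all 3 genes. The log2 fold changes were 0.12 for *Glrx* (95% confidence interval, -0.30 to 0.55), 0.08 for *Glrx2* (-0.58 to 0.74) and 0.06 for *Glrx5* (-0.48 to 0.59), with edgeR adjusted p values of 0.898, 0.962 and 0.967. For *Glrx2* and *Glrx5* the sign of the estimate turned when mouse 6 or mouse 8 was left out (*Glrx2*, -0.13 and -0.07; *Glrx5*, -0.10 and -0.06), and that of *Glrx5* also without mouse 4 (-0.02). The estimate of *Glrx* ranged from 0.04 to 0.22 when single mice were left out.

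**Figure D2:**
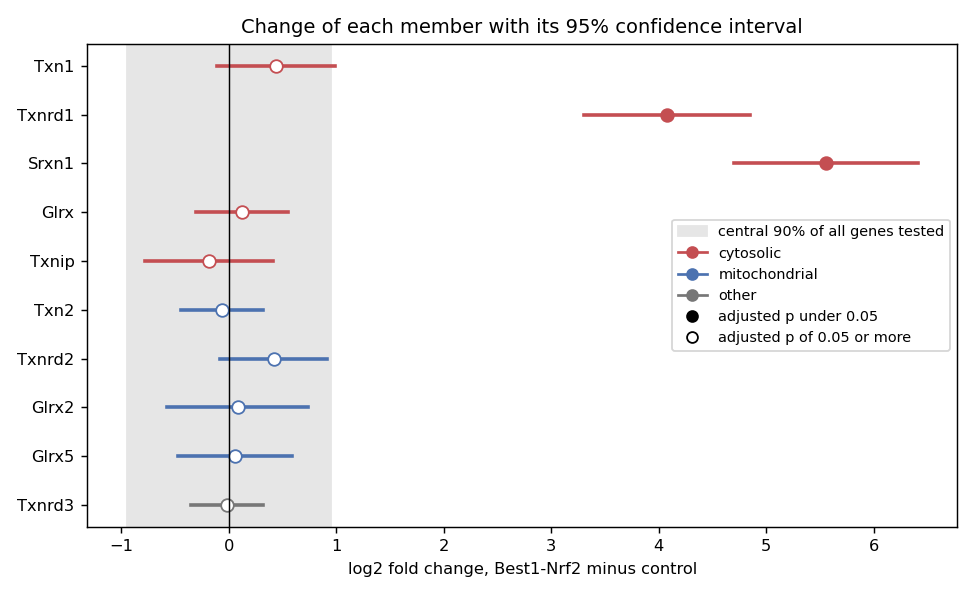
Log2 fold change of each member, Best1-Nrf2 minus control, with its 95% confidence interval. Filled points passed an adjusted p of 0.05 and the grey band holds the central 90% of the 18958 genes tested, from -0.95 to 0.95. *Srxn1* and *Txnrd1* lie to the right of the band with their whole intervals, and the intervals of the other 8 members include 0.

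To compare cytosolic genes with their mitochondrial counterparts, the change of 1 was subtracted from the change of the other within each mouse. This difference does not depend on how the libraries were scaled. *Txnrd1* rose by 3.64 ± 1.51 more than *Txnrd2* on the log2 scale (SD, n = 9), with the difference above 0 in 9 of 9 mice and between 1.15 and 5.33 (2-sided exact sign-flip permutation test, p = 0.00391, the smallest that 9 pairs allow, and 0.0117 after Benjamini-Hochberg adjustment over 3 such pairs). The ratio of *Txnrd1* to *Txnrd2* in TPM, which are scaled to gene length and library size, was 1.89 to 6.48 in control eyes and 12.2 to 117 in Best1-Nrf2 eyes, so the balance of the reductases moved toward the cytosolic gene in every mouse. *Txn1* changed by 0.51 ± 0.80 more than *Txn2*, in the same direction in 6 of 9 mice (exact permutation adjusted p = 0.182). For *Glrx* against *Glrx2* the difference was 0.02 ± 1.23, above 0 in 5 of 9 mice (exact permutation adjusted p = 0.965). It ranged from -2.31 in mouse 6 to 1.59 in mouse 5.

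**Figure D3:**
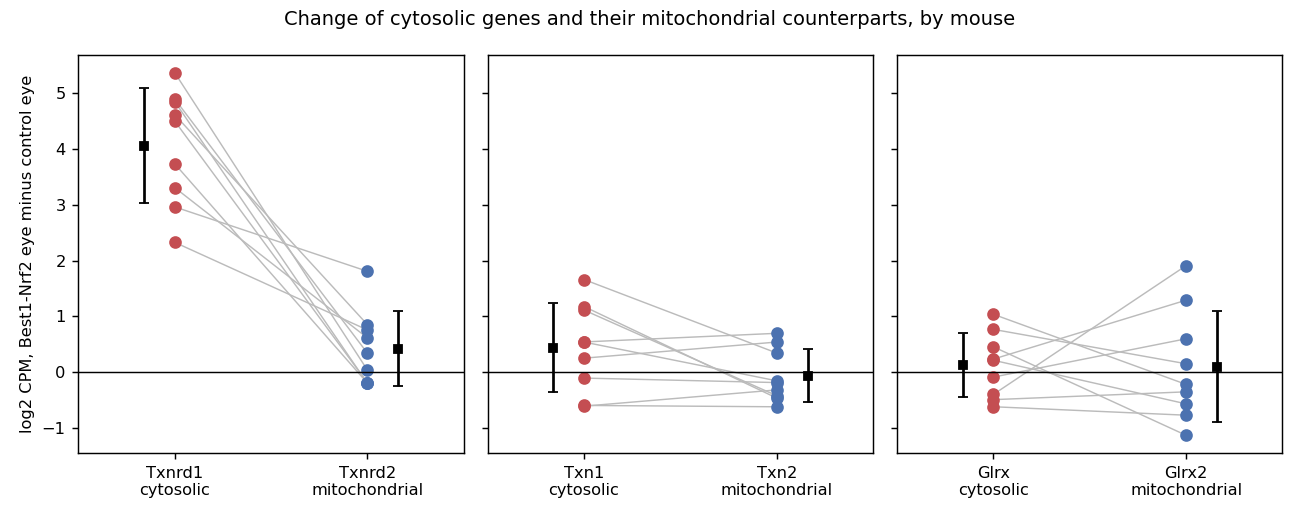
Change between the eyes of each mouse, in log2 CPM, for cytosolic genes (red) and their mitochondrial counterparts (blue). Points are mice, grey lines join the same mouse, and black squares with bars are the mean and SD of 9 mice. The line falls from *Txnrd1* to *Txnrd2* in all 9 mice, while for the thioredoxins and glutaredoxins lines run in both directions.

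Levels of different genes were compared per length, as TPM over the exonic length of each gene. In control eyes *Txn1* was the most abundant member (358 ± 161 TPM; SD, n = 9), followed by *Txn2* (106 ± 32.2), *Txnip* (81.6 ± 35.4), *Glrx5* (69.3 ± 16.1), *Srxn1* (29.0 ± 10.2), *Txnrd1* (25.3 ± 11.7), *Glrx2* (14.2 ± 5.22), *Txnrd3* (13.97 ± 6.36), *Glrx* (10.9 ± 4.51) and *Txnrd2* (5.75 ± 1.60). Of these neighbours, *Txn1* and *Txn2* differed, as did *Glrx5* and *Srxn1*, each in 9 of 9 eyes (exact sign-flip permutation test, adjusted p = 0.0141 over 18 neighbouring pairs). The other 7 pairs of neighbours did not differ beyond their spread. In both groups neighbours were set by the same TPM means that were tested. The p values of these pairs do not cover error in the exonic lengths, which all eyes share.

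In Best1-Nrf2 eyes the order was headed by *Srxn1* (1670 ± 1080 TPM), *Txnrd1* (491 ± 305) and *Txn1* (443 ± 181). *Srxn1* was above *Txnrd1* in 9 of 9 eyes (exact permutation adjusted p = 0.0141), whereas *Txnrd1* was above *Txn1* in 6 of 9 (adjusted p = 0.793, exact permutation). In control eyes the corresponding means were 25.3 TPM for the reductase and 358 TPM for its substrate. The remaining members kept to 94.6 ± 23.7 TPM for *Txn2*, 71.8 ± 39.8 for *Txnip*, 68.5 ± 15.8 for *Glrx5*, 14.7 ± 6.51 for *Glrx2*, 12.6 ± 4.84 for *Txnrd3*, 11.1 ± 3.92 for *Glrx* and 6.98 ± 0.606 for *Txnrd2*. In that sequence *Txn1* differed from *Txn2* and *Glrx5* from *Glrx2* (exact permutation adjusted p = 0.0141 for both).

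The Best1-Nrf2 eyes were not alike in the size of the response. In the eyes of mice 3, 6 and 8, *Srxn1* was at 432 to 705 CPM and *Txnrd1* at 434 to 562 CPM. In the other 6 they were at 1413 to 3053 and at 1258 to 2113 CPM. The libraries of these 3 eyes also stood apart in makeup, with 1.29 to 2.48% of counts in the 84 genes of ribosomal proteins, against 0.561 to 0.912% in the other 6, and with a mean exonic length of counted genes of 3434 to 3789 bases against 3979 to 4671. The eye of mouse 6 had the highest inner retina and cone marker levels of its group (mean log2 CPM, 6.96 and 4.14). The part of these features in the lower response was not tested. When the 3 mice were left out, the log2 fold change was 6.18 for *Srxn1* and 4.66 for *Txnrd1*. Since the 3 had been set apart after their low levels were seen, larger values follow from that choice, and they are given with no test.

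Whether *Srxn1*, *Txnrd1* and *Txn1* followed *Nfe2l2* among treated eyes could not be tested in these clusters, since a choice of eyes by their *Txnrd1* level is a choice by the outcome. By value, the eye with the most *Nfe2l2* (mouse 4, 704 CPM) also had the most *Srxn1*, and those with the least (mouse 6, 275 CPM, and mouse 8, 294 CPM) were among the 3 with low *Srxn1* and *Txnrd1*. The eye of mouse 3 broke this order, with *Nfe2l2* at 428 CPM and the lowest *Srxn1* of all treated eyes.

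**Figure D4:**
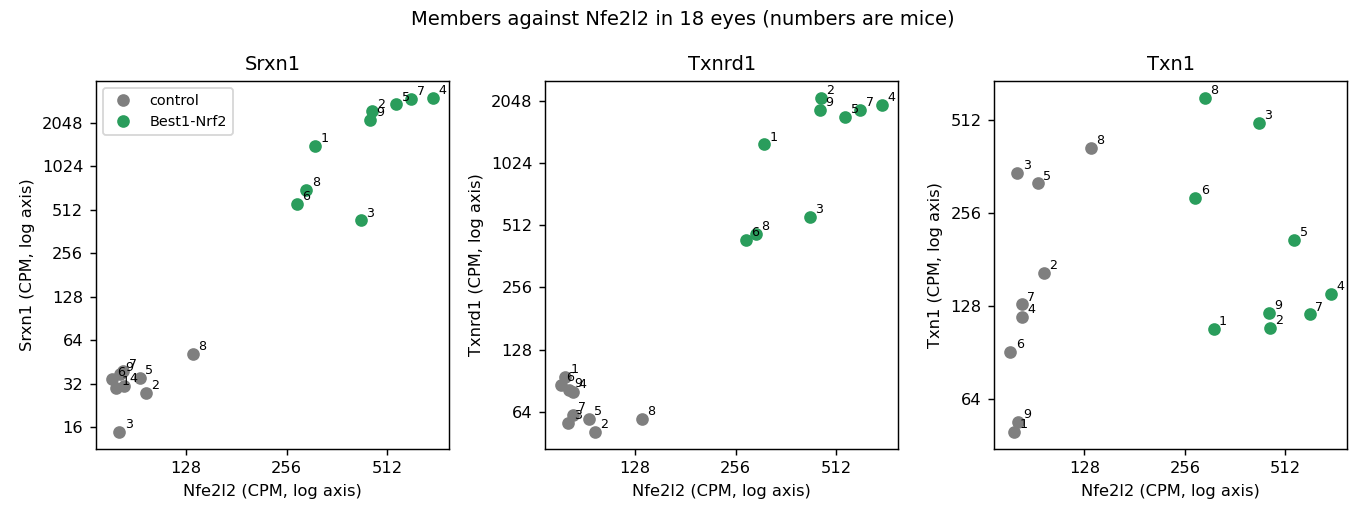
*Srxn1*, *Txnrd1* and *Txn1* against *Nfe2l2* in 18 eyes, all in CPM on log axes, with mouse numbers beside the points. Treated eyes of mice 3, 6 and 8 lie below the other 6 in the *Srxn1* and *Txnrd1* panels, and 2 of them (mice 3 and 8) are the highest of all 18 eyes in the *Txn1* panel.

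*Txn1* levels went with the makeup of the library. The share of counts in ribosomal protein genes lay between 0.415% and 1.99% in control eyes and between 0.561% and 2.48% in Best1-Nrf2 eyes, and did not differ between the eyes of a mouse beyond its spread (mean log2 difference, 0.07 ± 0.538 SD; exact sign-flip permutation p = 0.66; higher in 5 of 9 mice). Both groups fell into parts by this share, which was chosen after values had been seen, so levels are given by part, split at the widest gap. Control eyes of mice 3, 5 and 8 had 1.52% or more and the other 6 had 0.873% or less, and *Txn1* was at 320 to 415 CPM in the former and at 49.8 to 164 CPM in the latter. Best1-Nrf2 eyes of mice 3 and 8 had 1.96% or more and the other 7 had 1.29% or less, with *Txn1* at 502 to 605 CPM and at 108 to 287 CPM. The parts did not overlap in either group.

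Within the larger parts, *Txn1* rose with the share on the log2 scale in the 6 control eyes (r = 0.944, exact permutation p = 0.0139, adjusted 0.0437 over 20 relations, with rho = 0.886, exact p = 0.0333, adjusted 0.0975) and in the 7 treated eyes (r = 0.979, exact permutation p = 0.00318, adjusted 0.0159, with rho = 0.821, exact p = 0.0341, adjusted 0.0975). Without the 2 farthest eyes r was 0.63 and 0.625, so the relation within these parts rested in large part on those eyes. *Glrx2* passed in the 7 treated eyes (r = 0.947, exact permutation adjusted p = 0.00992, with rho = 0.964, adjusted 0.0278, and r = 0.887 without the 2 farthest) but not in the 6 control eyes (r = 0.807, adjusted p = 0.164). *Glrx5* did likewise (r = 0.929, exact permutation adjusted p = 0.00992, against r = 0.673, adjusted p = 0.232). By r alone, *Txnrd2* also passed in treated eyes (0.826, exact permutation adjusted p = 0.0437), and in control eyes so did *Glrx* (0.9749, adjusted 0.0159) and, in the opposite direction, *Txnrd3* (-0.939, adjusted 0.0437), but their rank correlations missed the threshold. *Txnrd1*, *Srxn1*, *Txnip* and *Txn2* passed in neither group. Because the share was chosen after values had been seen, the p values of these relations are descriptive only. Differences between the groups in these relations were not tested. With the share as a covariate the standard error of *Txn1* fell from 0.25 to 0.12 and its log2 fold change was 0.34, which still missed the threshold (edgeR adjusted p = 0.184).

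**Figure D5:**
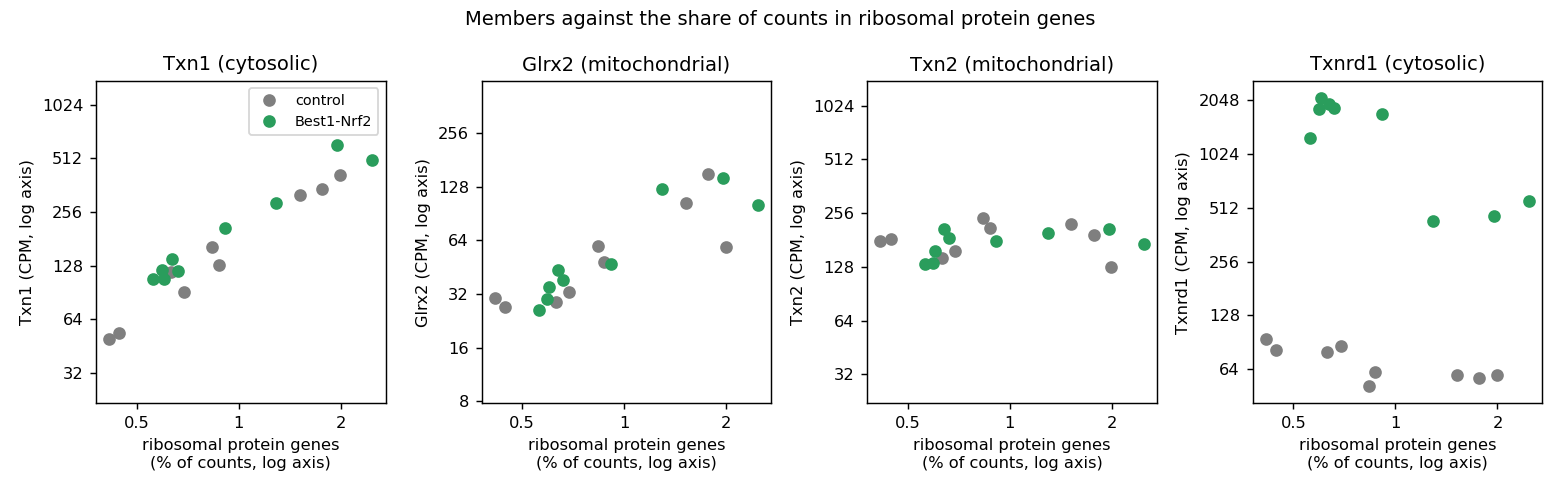
*Txn1*, *Glrx2*, *Txn2* and *Txnrd1* in CPM against the percentage of counts in 84 ribosomal protein genes, with log axes and a 64-fold range on every vertical axis. Points are eyes. The eyes with the highest share have the most *Txn1* in both groups, *Glrx2* tends the same way, *Txn2* stays level, and *Txnrd1* is higher in every Best1-Nrf2 eye than in every control eye at any share.

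Genes that work next to the members were read from the same test. A list of 9 cytosolic peroxiredoxins and other enzymes that were grouped as possible clients of thioredoxin held 2 genes that rose and none that fell (median log2 fold change, 0.14). *Prdx1*, a peroxiredoxin that thioredoxin reduces and sulfiredoxin repairs, rose from 783 ± 208 to 3400 ± 1691 CPM (SD, n = 9 each), by 1.99 ± 0.25 on the log2 scale (SE, edgeR adjusted p = 0.000622). *Prdx6*, which draws mainly on glutathione rather than on thioredoxin, rose from 773 ± 144 to 4738 ± 2089 CPM (log2 fold change, 2.51 ± 0.22 SE, edgeR adjusted p = 5.0e-05). Both were higher in 9 of 9 mice, with groups that did not overlap. The related *Prdx2* had a log2 fold change of 0.04 (edgeR adjusted p = 0.969).

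None of 5 clients in mitochondria or the endoplasmic reticulum passed (median log2 fold change, 0.14), among them *Prdx3*, the mitochondrial peroxiredoxin that Txn2 serves (0.14; edgeR adjusted p = 0.790). Of 16 thioredoxin-fold relatives tested, out of 19 listed, 1 rose and none fell (median, 0.10). This was *Txndc16*, a thioredoxin-domain protein of the endoplasmic reticulum, which went from 38.6 ± 23.9 CPM to 119 ± 60.3 CPM with Best1-Nrf2 (log2 fold change, 1.68 ± 0.27 SE, edgeR adjusted p = 0.00287). It was higher in 9 of 9 mice, with overlapping groups. None of 7 genes of the machinery that inserts selenocysteine, which thioredoxin reductases need, passed the test (median, -0.08; range, -0.21 to 0.16). Likewise, none of 8 genes around *Txnip*, its α-arrestin relatives and the glucose-sensing Mondo factors, passed (median, -0.41), and the lowest of them, *Arrdc5*, had a log2 fold change of -2.28 (edgeR adjusted p = 0.155). Over all genes tested the median was -0.03, and 3.12% passed in the upward and 1.13% in the downward direction. In lists this short, counts of 0 or 1 are no result about the list.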

How the data were processed

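RPE RNA from both eyes of 9 mice labelled as *rd1* was amplified with a low-input kit. No molecular identifiers are described, so count-based precision covers counting error only, and the labels do not assign libraries to the sequencing runs. The authors used STAR to align reads to mm10 and Ensembl transcripts, featureCounts to count them, and Salmon (0.8.1, per the submitters' notes) for estimates in parallel. The deposited values are expected counts per gene, rounded and not scaled. The unit was inferred from values that near-identical genes share, and which counter gave them is not stated.

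Genes were kept by filterByExpr (18958 of 47729), scaled by TMM, and tested in edgeR 4.0.16 (R 4.3.3) by quasi-likelihood F tests with mouse as a block, with Benjamini-Hochberg adjustment over all genes tested and a threshold of 0.05. Log2 CPM used a prior count of 2, standard errors came from the F statistic, and TPM used union exonic length from the GENCODE annotation of GRCm38. Changes of paired genes were compared with exact sign-flip permutations over mice, and correlations with exact permutations. P values measure the spread between these mice.

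The labels give both eyes of a mouse 1 number, which sets the pairs. After group means were removed, the eyes of a mouse correlated with a median of 0.0404 (range, -0.567 to 0.749). No libraries were duplicates (72 within-group pairs; chi-square per degree of freedom of at least 49.5).

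Named are the 10 members, *Nfe2l2*, and genes past the threshold in 5 lists of related genes. *Rpe65*, *Rlbp1*, *Nrl*, *Nr2e3*, *Csf1r*, *Col3a1*, *Prdx2*, *Prdx3*, *Arrdc5* and *Gm15441* were named after their values were seen. The members and lists were chosen with earlier results of these data known. Alternatives were no block, RLE and upper-quartile scaling, DESeq2 1.42.0, voom of limma 3.58.1, 2 other count filters, a prior count of 0.5, a rod and cone marker covariate, each mouse left out, and, chosen after values were seen, a ribosomal protein covariate and mice left out together. The methods were tested on simulated data.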

Additional observations from a re-analysis of the deposited data

Results flagged for a closer look

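Of 22 groups of 9 eyes screened, for the 10 members and *Nfe2l2* in each treatment, 3 held an eye whose gap to its nearest neighbour exceeded Dixon's 95% critical share of the group's range. Chance alone gives about 1.1 in 22. *Srxn1* in the control eye of mouse 3 was at 3.89 log2 CPM, with the next eye at 4.80. *Txnrd3* in the same eye was at 3.06 log2 CPM, with the next at 3.74. *Nfe2l2* in the control eye of mouse 8, the smallest library, was at 7.06 log2 CPM, with the next at 6.60.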

How the results depend on the processing

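*Txnrd1* and *Srxn1* were the members that passed in every fit except that with the rod and cone marker covariate, where 0 members passed in all and 0 in the upward direction, and 21 genes passed in all (20 higher, 1 lower). The cause was not tested. The members' change kept its sign in every fit for *Txnrd1*, *Srxn1*, *Txn1*, *Txnrd2* and *Txnip*. Leaving out each mouse in turn gave 0.29 to 0.577 for *Txn1*, -0.287 to -0.0046 for *Txnip*, 0.256 to 0.546 for *Txnrd2*, 3.91 to 4.29 for *Txnrd1*, 5.41 to 5.77 for *Srxn1*, 2 members past the threshold each time, and 3.43 to 3.95 for *Txnrd1* against *Txnrd2*. Across all genes, 540 to 1046 passed (416 to 726 higher, 116 to 320 lower). DESeq2, run without the count filter and so over 35910 genes, called 1627 (1020 higher, 607 lower). With voom 1426 passed (924 higher, 502 lower), and without mice 6 and 8 together 366 were lower. The fit without the replicate block called 742 genes, of which 647 were shared with the paired fit, and changed no member's call.

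Estimates near 0 turned. *Glrx2* was at -0.141 with voom, at -0.329 without mice 6 and 8 and at -0.288 without mice 3, 6 and 8, and ranged from -0.134 to 0.241 without single mice. *Glrx5* was at -0.0863, -0.254 and -0.241 in the same fits and at -0.0044 with the ribosomal protein covariate, and ranged from -0.0993 to 0.187. *Txnrd3* was at 0.011 without a filter, 0.0903 with the marker covariate and 0.0011 with the ribosomal protein covariate, and ranged from -0.0435 to 0.0721. The marker covariate gave 1.56 for *Glrx2*, 1.2 for *Txnrd2*, 1.15 for *Glrx5*, 0.93 for *Txn1*, -1.25 for *Txnip*, -0.39 for *Glrx* and 0.613 for *Txn2* (edgeR adjusted p, 0.209 to 0.696). *Txn2* ranged from -0.158 to 0.0302 without single mice, and *Txnrd2* was at 0.104 without mice 3, 6 and 8. *Glrx* minus *Glrx2* ranged from -0.173 to 0.314.

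Over all 9 treated eyes, which do not form 1 cluster, r with *Nfe2l2* was 0.752 for *Srxn1* (exact permutation adjusted p = 0.0347), 0.765 for *Txnrd1* (0.0347) and -0.453 for *Txn1* (0.221). Spearman rho was 0.9 (exact permutation adjusted p = 0.00608), 0.85 (0.00911) and -0.367 (0.336). With upper-quartile scaling r was 0.682 and 0.681 for the former pair (adjusted p = 0.0714 for both, exact permutation). Without mice 6 and 8 it was 0.559 and 0.454 (adjusted p = 0.465 for both, exact permutation), and neither call held. Over differences between the eyes of a mouse (replicate block) it was 0.832 for *Srxn1* (exact permutation adjusted p = 0.0114) and 0.675 for *Txnrd1* (0.0651, a lost call). Over all 9 eyes of a group, which form parts, r with the ribosomal protein share was -0.772 in control and -0.864 in treated eyes for *Txnrd1* (exact permutation adjusted p = 0.0431 and 0.0242, with rho -0.733 and -0.583, adjusted 0.0778 and 0.196), and -0.0923 and -0.852 for *Srxn1* (0.884 and 0.0213, with rho 0.217 and -0.467, adjusted 0.726 and 0.304). The least abundant member, *Txnrd2*, had 102 counts in the smallest library. No test at matched depth was run.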
